A study of Mus musculus with 6 samples.

Results

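The genes described here are 10 transcriptional targets of the YAP-TEAD complex, chosen by name: Ctgf, Cyr61, Crim1, Amotl1, Amotl2, Ajuba, Axl, Nuak2, Ptpn14 and Lats2. All 10 were found among the 26191 genes of the deposited table. RNA was sequenced from mouse hearts at embryonic day 12, from 3 control libraries (ctrl, genotype Mrps5 fl/fl) and 3 mutant libraries (cKO, genotype Mrps5 fl/fl; cTNT-Cre), each made from pooled hearts. Both groups carried the floxed Mrps5 alleles, and only the mutant embryos carried the Cre transgene, so an effect of Cre alone cannot be told apart from the loss of Mrps5. The troponin T promoter drives Cre in cardiomyocytes, and the other cells of the heart keep Mrps5, which encodes a protein of the mitochondrial ribosome. Values are FPKM, a count of fragments scaled to transcript length and to the size of the library, summed over the transcripts of each gene. Libraries are named by their replicate number as controls 1 to 3 and mutants 1 to 3.

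YAP1 and its relative TAZ, encoded by Wwtr1, are coactivators that bind DNA through the TEAD factors. The Hippo kinase cascade, in which MST1 and MST2 act on LATS1 and LATS2, phosphorylates both coactivators and keeps them out of the nucleus. In the developing heart this pathway is known for limiting cardiomyocyte proliferation and for responding to cell density and mechanical load. Its targets include secreted matrix proteins, membrane receptors and several proteins that act back on the pathway.

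The TEAD factors recognize a short core word, CATTCC or GGAATG on the opposite strand, and the promoters of the target genes were searched for it. RefSeq (GRCm38.p6) gave a window of 300 bases, from 250 before to 50 after the transcription start, for 8 of the 10 genes. Ctgf and Nuak2 were not searched. The word was in a window of 7 of these 8 genes, with Amotl1 as the exception. Counted by window, it was in 7 of their 9, and in 14.7% of all 32851 windows of the same length. Among the other listed targets described further on, 1 of the 9 with a window, Ankrd1, held the word. The list of 10 was chosen as YAP-TEAD targets, and such words are part of how targets become known, so the count describes the list. The expression values do not use these coordinates, and the processing notes name another build.

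The bases before the transcription start are shown for Cyr61, Crim1 and Axl, which hold the word and had the highest fold changes among the 8 genes with a window. Sequences run 5′ to 3′ on the strand of the gene, with the core word in capitals. Counted from the start, with negative numbers before it, the word began at position -103 in Cyr61, -79 in Crim1 and -233 in Axl.
Cyr61, chr3:145649986-145650235, minus strand: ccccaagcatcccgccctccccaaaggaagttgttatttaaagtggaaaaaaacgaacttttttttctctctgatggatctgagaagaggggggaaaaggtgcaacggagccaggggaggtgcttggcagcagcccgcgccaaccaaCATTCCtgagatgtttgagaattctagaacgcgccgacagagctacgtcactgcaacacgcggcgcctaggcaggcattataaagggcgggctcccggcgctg
Crim1, chr17:78199998-78200247, plus strand: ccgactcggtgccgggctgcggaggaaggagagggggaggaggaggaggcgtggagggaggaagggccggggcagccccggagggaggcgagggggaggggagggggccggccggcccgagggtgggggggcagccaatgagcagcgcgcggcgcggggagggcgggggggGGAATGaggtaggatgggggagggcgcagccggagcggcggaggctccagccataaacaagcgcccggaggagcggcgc
Axl, chr7:25788734-25788983, minus strand: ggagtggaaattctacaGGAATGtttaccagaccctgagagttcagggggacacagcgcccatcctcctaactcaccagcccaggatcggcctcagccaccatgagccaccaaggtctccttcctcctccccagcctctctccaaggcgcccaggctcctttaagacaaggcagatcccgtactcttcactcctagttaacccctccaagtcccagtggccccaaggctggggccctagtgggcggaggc

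Shorter stretches around the word are shown for Ajuba, Amotl2, Ptpn14 and Ankrd1, to compare the bases that flank it. Ajuba and Ankrd1 each held the word at 2 places. In Lats2 the word lay after the transcription start of 1 of its 2 windows.
Ajuba, chr14:54577830-54577859, minus strand: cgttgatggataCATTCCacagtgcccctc
Ajuba, chr14:54577808-54577837, minus strand: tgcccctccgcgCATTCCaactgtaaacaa
Amotl2, chr9:102717727-102717756, plus strand: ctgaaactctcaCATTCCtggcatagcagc
Ptpn14, chr1:189728110-189728139, plus strand: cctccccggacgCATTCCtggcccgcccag
Ankrd1, chr19:36120037-36120066, minus strand: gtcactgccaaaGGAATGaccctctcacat
Ankrd1, chr19:36119950-36119979, minus strand: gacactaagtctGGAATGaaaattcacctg

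**Figure D1:**
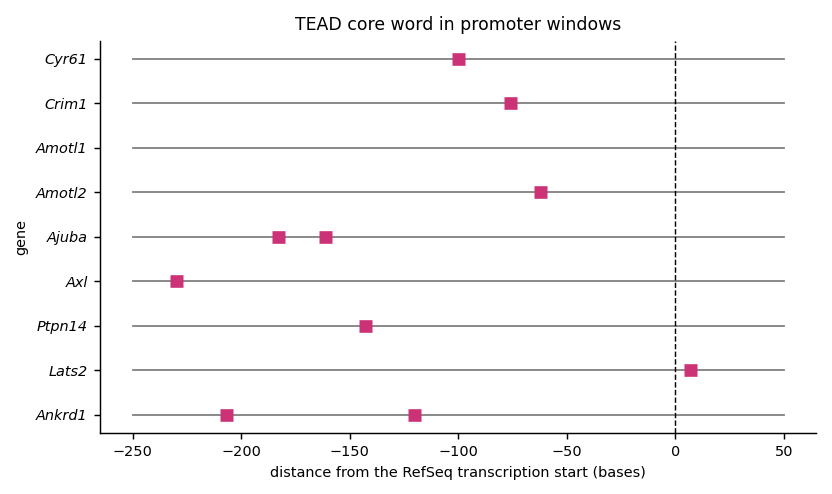
Position of the TEAD core word (pink blocks) in promoter windows of 8 target genes and of Ankrd1, in bases from the RefSeq transcription start (dashed line). The word lies before the start in every gene shown that holds it except Lats2, and Amotl1 has none.

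Mrps5 (ENSMUSG00000027374), the gene deleted in the mutants, was at 9.65, 11.4 and 10.4 FPKM in controls 1 to 3 and at 5.28, 7.41 and 10.4 FPKM in mutants 1 to 3. On the log2 scale the difference was -0.44 (standard error 0.19, limma adjusted p = 0.338), and -0.66 without mutant 3 (limma adjusted p = 0.0691). The library labelled mutant 3 was at the control level of the deleted gene, and the results on the targets are given with and without it. The cardiomyocyte markers looked for were present in every library, and their summed level was 9453 to 11392 FPKM in controls. In mutants 1 to 3 it was 7708, 8597 and 9093 FPKM. By this sum the library labelled mutant 3 was below every control, like mutants 1 and 2. Erythroid genes took 12.0% to 13.3% of the summed FPKM in controls and 23.5%, 10.8% and 22.0% in mutants 1 to 3. The depth in reads is unknown from FPKM. The most frequent ratio of low values between a library and control 1, shared by 23 to 42 genes, placed the relative depths between 1 and 1.62. In control 3 a second ratio, 0.698 in 24 genes, was nearly as frequent as 1.40 in 26 genes, so these depths are uncertain.

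The question asked of the targets was whether their RNA differed between mutant and control hearts. Across all 6 libraries 0 of the 9 targets tested passed an adjusted p of 0.05, and 7 of the 9 had a higher estimate in mutants, where 45.0% of all genes tested did. The 3 highest estimates were those of Ctgf, Crim1 and Axl, with fold changes of 1.51, 1.34 and 1.22 on the FPKM + 1 scale. In mutants 1 and 2 Ctgf, Cyr61, Crim1, Ajuba and Axl lay above every control, as did 14.9% of all genes tested. In the library labelled mutant 3, Crim1 alone did. Without that library Ctgf passed the test, at a 1.90-fold higher level, and the other 8 did not. Ctgf did not pass when the filter on low values was dropped as well (limma adjusted p = 0.0826). That library was known to depart from mutants 1 and 2 when the fits were planned, so p-values without it hold only for the libraries kept.

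The tests were made with limma on log2(FPKM + 1) over the 13260 genes with at least 1 FPKM in at least 3 of the 6 libraries, a scale on which the changes of weakly expressed genes come out too small. Nuak2, under 1 FPKM in every library, did not pass this filter. Of the genes tested, 11 (0.083%) had an adjusted p under 0.05 by the Benjamini-Hochberg method and 1990 (15.0%) an unadjusted p under 0.05. Of the targets tested, 3 had an unadjusted p under 0.05 (Crim1, Axl and Ctgf), all with a higher estimate in mutants, where 5.57% of all genes had such a p and a higher estimate. The median log2 fold change of the 9 targets was 0.092, against -0.021 over all genes tested. Without the library labelled mutant 3 the median was 0.23, against -0.0069 over all genes, and without mutant 1 it was -0.049. In the fit without the library labelled mutant 3, 5 of the 9 had an unadjusted p under 0.05, all with a higher estimate in mutants, where 6.42% of all genes did. The count was 1 without control 1, control 2 or mutant 1, where 9.17%, 12.7% and 11.4% of all genes passed in either direction. With the library labelled mutant 3 left out, limma called 270 genes (2.04%) at an adjusted p under 0.05, among them Ctgf. With 3 libraries in a group, or 2 where one is left out, the p-values rest on little replication.

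**Figure D2:**
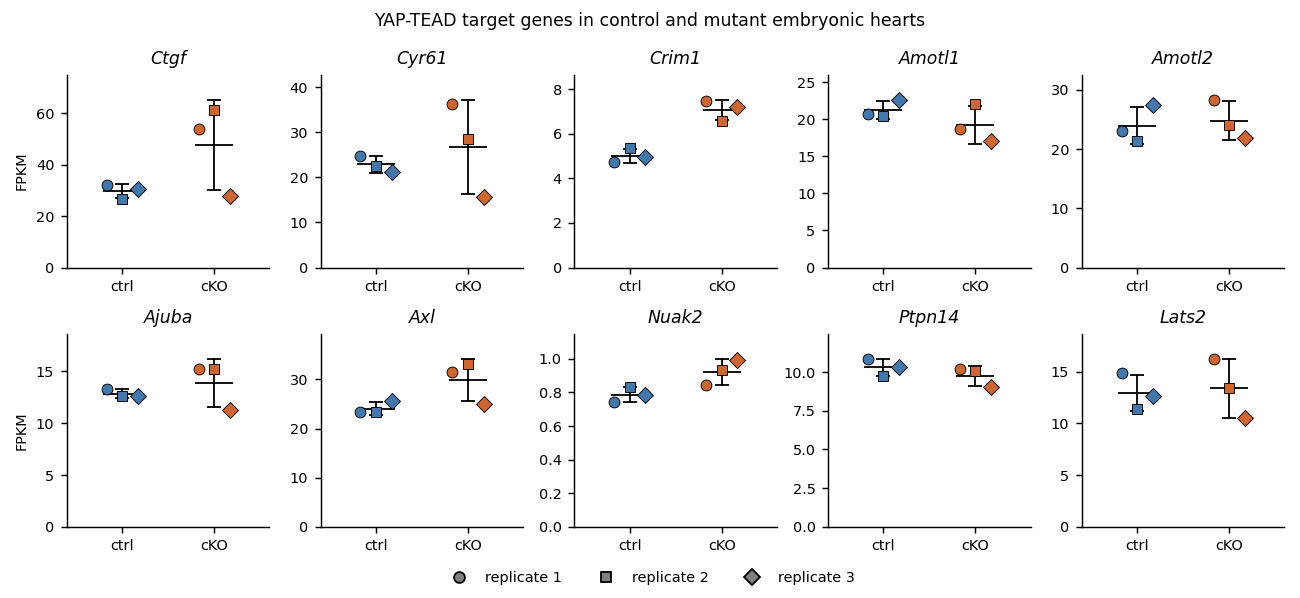
FPKM of the 10 target genes in each control (blue) and mutant (orange) library, with marker shapes for the replicate number and black bars for the mean and SD (n = 3). Mutant 3 (diamond) is the lowest mutant library for Ctgf, Cyr61, Amotl1, Amotl2, Ajuba, Axl, Ptpn14 and Lats2.

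Ctgf and Cyr61 encode secreted matricellular proteins of the CCN family and are the targets most often read as a measure of YAP activity. Ctgf (ENSMUSG00000019997) was at 32.2, 26.7 and 30.7 FPKM in controls 1 to 3 and at 53.9, 61.5 and 28.0 FPKM in mutants 1 to 3. Mutants 1 and 2 were above all controls, and the library labelled mutant 3 was within their range, so the groups overlapped. The log2 fold change was 0.59 (standard error, SE, 0.25, limma adjusted p = 0.326). Without the library labelled mutant 3 it was 0.93 (SE 0.11, limma adjusted p = 0.00584), and over the single-change alternatives run the adjusted p ranged from 0.00584 to 0.581. Without mutant 2 the log2 fold change was 0.38 and without mutant 1 it was 0.47, neither past an unadjusted p of 0.05. Relative to the control mean, Ctgf was at 1.81, 2.06 and 0.939 times in mutants 1 to 3.

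The table splits Ctgf over 3 transcripts, of which ENSMUST00000020171 held 79.7% of the summed FPKM. This transcript was at 18.9, 19.0 and 24.6 FPKM in controls and at 46.4, 53.4 and 23.5 FPKM in mutants 1 to 3. The separation of mutants 1 and 2 from the controls was wider in this transcript than in the sum. Its log2 fold change was 0.88 (SE 0.30, limma adjusted p = 0.358), and 1.23 without the library labelled mutant 3 (SE 0.15, limma adjusted p = 0.0413).

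Cyr61 (ENSMUSG00000028195) was at 24.8, 22.6 and 21.2 FPKM in controls 1 to 3 and at 36.4, 28.5 and 15.7 FPKM in mutants 1 to 3. Mutants 1 and 2 were above all controls and the library labelled mutant 3 was below all of them. The mutant mean was 26.9 ± 10.4 FPKM (SD, n = 3) against 22.9 ± 1.81 FPKM (SD, n = 3) in controls. The log2 fold change was 0.15 (SE 0.25, limma adjusted p = 0.825), with a 95% interval from -0.43 to 0.73. Without the library labelled mutant 3 it was 0.48 (SE 0.13, limma adjusted p = 0.126). Without mutant 1 it was -0.10. Of the CCN genes outside the list, Wisp1 was at 12.2 to 13.8 FPKM in controls and 9.85 to 14.1 FPKM in mutants. Nov was between 0.403 and 0.753 FPKM over all libraries, and Wisp2 and Wisp3 were at most 0.119 FPKM in any library. Ctgf and Cyr61 were thus the most abundant CCN genes in these hearts per transcript length.

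Crim1 and Axl encode membrane proteins. Crim1 (ENSMUSG00000024074), whose product binds bone morphogenetic proteins, was at 4.74, 5.35 and 4.98 FPKM in controls and at 7.47, 6.60 and 7.21 FPKM in mutants 1 to 3. It was the 1 target of the 9 tested whose groups did not overlap, which was the case for 20.8% of all genes tested, and for 7.74% with the mutants higher. Mutant 3 lay between mutants 2 and 1. The groups stayed apart under the 3 scalings too. The other alternatives keep the order of these values, so they could not bring an overlap. The log2 fold change was 0.43 (SE 0.095, limma adjusted p = 0.141) and 0.41 without mutant 3 (limma adjusted p = 0.123).

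Axl (ENSMUSG00000002602), the receptor tyrosine kinase for the ligand GAS6, was at 23.3, 23.3 and 25.6 FPKM in controls 1 to 3 and at 31.5, 33.1 and 24.999 FPKM in mutants 1 to 3. The library labelled mutant 3 was within the control range and the other mutant libraries were above it. The log2 fold change was 0.29 (SE 0.11, limma adjusted p = 0.294). Without the library labelled mutant 3 it was 0.41 (SE 0.093, limma adjusted p = 0.0808).

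Several targets encode proteins that act back on the pathway. Ajuba is a LIM protein that binds LATS kinases, and Nuak2 is a kinase of the AMPK family that promotes YAP activity. Ajuba (ENSMUSG00000022178) was at 13.3, 12.6 and 12.6 FPKM in controls 1 to 3 and at 15.2, 15.2 and 11.2 FPKM in mutants 1 to 3. Mutants 1 and 2 were above the controls and the library labelled mutant 3 below them, the pattern also seen in Cyr61. The log2 fold change was 0.092 (SE 0.12, limma adjusted p = 0.770) and 0.23 without that library (limma adjusted p = 0.282). Nuak2 (ENSMUSG00000009772) was at 0.745, 0.834 and 0.785 FPKM in controls and at 0.842, 0.936 and 0.991 FPKM in mutants. The groups did not overlap, as for 6.14% of all genes with mutants higher when no filter was set. The values were under the filter. The gene entered the limma fit only without a filter (adjusted p = 0.641) or with the values rescaled (adjusted p = 0.623). Leaving out the library labelled mutant 3 as well gave limma adjusted p of 0.698 and 0.783.

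Lats2 encodes a Hippo kinase, Amotl2 and Amotl1 encode angiomotin-like proteins that hold YAP at cell junctions, and Ptpn14 encodes a phosphatase that binds YAP. All of them are known to restrain it. Lats2 (ENSMUSG00000021959) was at 14.8, 11.4 and 12.6 FPKM in controls and at 16.2, 13.4 and 10.5 FPKM in mutants 1 to 3. Amotl2 (ENSMUSG00000032531) was at 23.1, 21.3 and 27.4 FPKM in controls and at 28.3, 24.1 and 21.9 FPKM in mutants 1 to 3. In both genes the groups overlapped and the sign of the estimate depended on the libraries used. The log2 fold change was 0.032 for Lats2 (SE 0.16, limma adjusted p = 0.948) and 0.048 for Amotl2 (SE 0.12, limma adjusted p = 0.889). The main Amotl2 transcript, ENSMUST00000035121 with 86.1% of the sum, was at 19.2, 19.6 and 19.6 FPKM in controls and at 25.2, 22.1 and 20.1 FPKM in mutants. Its groups did not overlap, as for 8.04% of all genes with mutants higher when the most abundant transcript was used. The log2 fold change of this transcript was 0.19 (limma adjusted p = 0.463), and 0.27 without the library labelled mutant 3 (limma adjusted p = 0.344). A minor transcript, ENSMUST00000153911, was at 5.50 FPKM in control 3 and listed at 0 in every other library.

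Amotl1 (ENSMUSG00000013076) was at 20.7, 20.4 and 22.6 FPKM in controls and at 18.7, 22.0 and 17.1 FPKM in mutants 1 to 3. Its log2 fold change was -0.14 (SE 0.11, limma adjusted p = 0.573). Ptpn14 (ENSMUSG00000026604) was at 10.8, 9.73 and 10.3 FPKM in controls and at 10.2, 10.1 and 9.04 FPKM in mutants, with a log2 fold change of -0.071 (SE 0.090, limma adjusted p = 0.760). These were the targets with a lower estimate in mutants, and in both the groups overlapped. Without mutant 2 Amotl1 was at -0.24 (limma adjusted p = 0.278), with an unadjusted p of 0.0373. In that fit 16.3% of all genes had an unadjusted p under 0.05. Both remaining mutants were below every control for Amotl1, as for 22.8% of all genes. The 95% interval for Ptpn14 ran from -0.28 to 0.14, and that for Amotl1 from -0.39 to 0.10. With the library labelled mutant 3 left out, the estimates were 0.18 for Lats2, 0.13 for Amotl2, -0.063 for Amotl1 and -0.021 for Ptpn14, with limma adjusted p of 0.588, 0.709, 0.847 and 0.949.

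**Figure D3:**
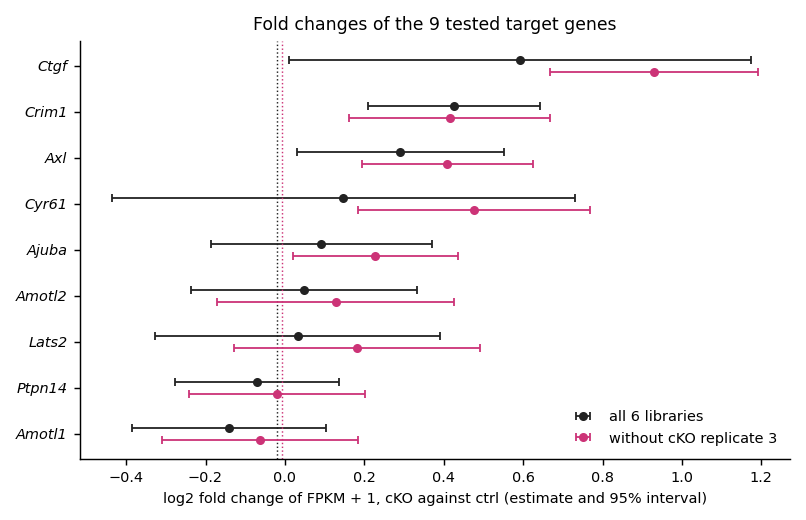
Log2 fold change of FPKM + 1, mutant against control, of the 9 target genes tested, with 95% intervals from limma, over all 6 libraries (black) and without mutant 3 (pink). Dotted lines mark the medians of all genes tested, at -0.021 and -0.0069, and the Ctgf and Cyr61 estimates move most between the fits.

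By their level in controls, which FPKM allows to be compared between genes of different length, Ctgf was the highest at 29.8 ± 2.83 FPKM (SD, n = 3). Axl, Amotl2 and Cyr61 followed at 24.1 ± 1.34, 23.9 ± 3.13 and 22.9 ± 1.81 FPKM (SD, n = 3 each), and Amotl1 at 21.3 ± 1.21 FPKM (SD, n = 3). The values of Ctgf and Amotl2 overlapped, as did those of Axl, Amotl2 and Cyr61, and those of Amotl1 with Amotl2 and Cyr61. Lats2 and Ajuba, at 12.9 ± 1.75 and 12.9 ± 0.410 FPKM (SD, n = 3 each), were not apart. Ptpn14 was at 10.3 ± 0.556, Crim1 at 5.02 ± 0.308 and Nuak2 at 0.788 ± 0.0445 FPKM (SD, n = 3 each). Crim1, whose groups did not overlap, was thus among the least abundant of the targets.

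Of the 9 targets tested, 7 lay above the control range in mutant 1 and 5 in mutant 2, where 24.2% and 35.0% of all genes tested did. In the library labelled mutant 3, 1 lay above and 5 lay below the control range, where 24.4% and 40.3% of all genes did. The median deviation of the targets from the control mean was 0.31, 0.23 and -0.17 log2 units in mutants 1 to 3, where that of all genes tested was -0.045, 0.025 and -0.052.

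Levels in whole hearts reflect both the cell types present and the RNA of each cell, and fewer cells of a type cannot be told apart from less RNA per cell. Among the marker lists of other cell types, the mesenchymal sum was above the controls in mutants 1 and 2 and below them in the library labelled mutant 3. The 10 mesenchymal and fibroblast markers listed, none of which was at 0, summed to 408 to 417 FPKM in controls and to 442, 497 and 365 FPKM in mutants 1 to 3. Of these markers 7 were above the control range in mutant 1 and 7 in mutant 2, where 24.2% and 35.0% of all genes tested were. In the library labelled mutant 3, 7 were below it, where 40.3% of all genes were. There 7 of 9 endothelial, 7 of 7 macrophage and 4 of 7 epicardial markers were below it as well. The 7 epicardial markers summed to 137 to 157 FPKM in controls and to 179, 157 and 135 FPKM in mutants 1 to 3. The 9 endothelial markers summed to 244 to 264 FPKM in controls and to 234, 259 and 227 FPKM in mutants 1 to 3. The 7 macrophage markers summed to 15.1 to 16.5 FPKM in controls and to 16.2, 18.4 and 10.3 FPKM in mutants 1 to 3. Mutant 1 was thus below the controls in the endothelial sum and within them in the macrophage sum, and mutant 2 was within them in the epicardial and endothelial sums. The library labelled mutant 3 was below the controls in all 4 sums, the mesenchymal one included. The part of these cells in the levels of the targets was not tested. With the erythroid genes removed and FPKM rescaled, the log2 fold change was 0.63 for Ctgf, 0.49 for Crim1 and 0.32 for Axl, and the groups did not overlap, with mutants higher, for 3 of 10 targets (Crim1, Axl and Nuak2) and for 9.49% of all genes. When the library labelled mutant 3 was left out these estimates were 0.96, 0.47 and 0.44, and 6 of 10 targets did not overlap, where 16.9% of all genes were higher without overlap.

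A further 14 genes known as YAP-TEAD targets were then examined. Of 13 that passed the filter, 9 had a higher estimate in mutants, 4 had an unadjusted p under 0.05, all higher, and 6 did not overlap between the groups, all with mutants higher. Over all genes tested these shares were 45.0%, 5.57% and 7.74%. Ankrd1, a cardiac ankyrin repeat protein of the sarcomere and nucleus, was the most abundant, at 252, 290 and 286 FPKM in controls and 439, 541 and 295 FPKM in mutants 1 to 3. Its log2 fold change was 0.58 (SE 0.20, limma adjusted p = 0.251), and 0.82 without the library labelled mutant 3 (limma adjusted p = 0.0235). Like Ctgf it was highest in mutant 2 and near the controls in the library labelled mutant 3.

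Gadd45a, a growth arrest and DNA damage gene, was at 8.12, 7.64 and 8.88 FPKM in controls and at 20.1, 14.5 and 12.9 FPKM in mutants 1 to 3. All mutant libraries were above the controls (log2 fold change 0.85, SE 0.15, limma adjusted p = 0.0952, and 0.0145 without the library labelled mutant 3). F3, which encodes tissue factor, the starter of coagulation, was at 2.34, 3.04 and 2.49 FPKM in controls and 4.44, 7.98 and 3.81 FPKM in mutants (log2 fold change 0.77, limma adjusted p = 0.187). Igfbp3, which encodes an insulin-like growth factor binding protein, had a log2 fold change of 0.34 (limma adjusted p = 0.262). Asap1 had the lowest estimate of the list, at -0.12. The median log2 fold change of the 13 genes was 0.21, and 0.30 without the library labelled mutant 3, a fit in which 2 of them, Ankrd1 and Gadd45a, passed an adjusted p of 0.05, where 2.04% of all genes did.

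**Figure D4:**
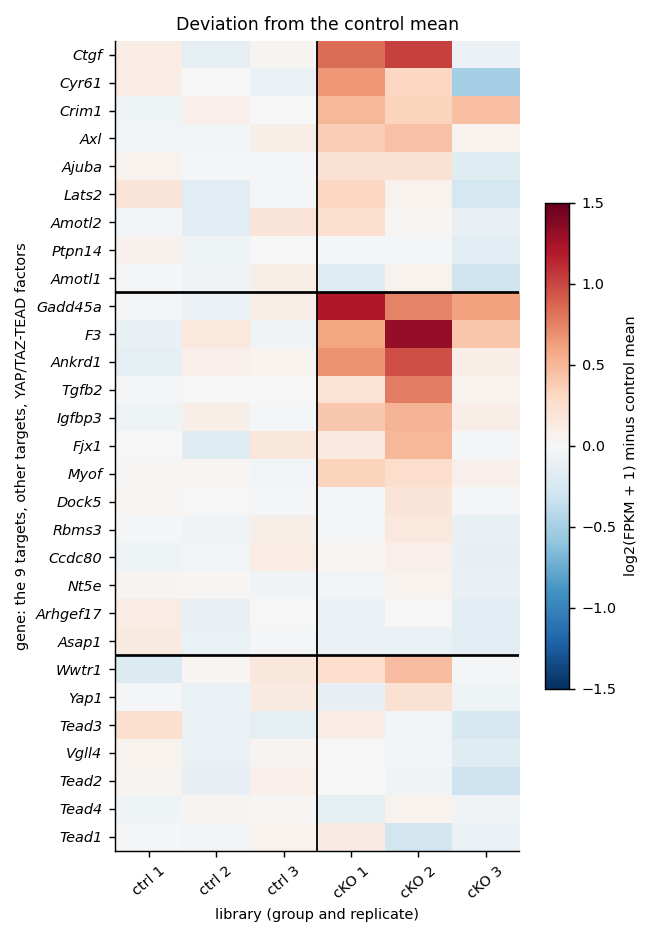
Deviation of log2(FPKM + 1) from the control mean (color scale, red higher and blue lower) for 9 targets, 13 further targets and 7 genes of the YAP, TAZ and TEAD factors and VGLL4, by library. Within each block genes are ordered by the mean of mutants 1 and 2, and mutant 3 is close to white or blue in most rows, with Crim1, Gadd45a and F3 as exceptions.

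Of 37 upstream genes of the pathway, for coactivators and factors, kinases and adaptors, and junction proteins, 35 passed the filter. Their median log2 fold change was 0.0089, 19 estimates were above 0 and 16 below, and 0 passed an adjusted p of 0.05 by limma where 1 had an unadjusted p under 0.05, against 0.083% and 15.0% of all genes. With the library labelled mutant 3 left out the median was 0.035, and 2 genes, Wwtr1 and Amot, had an unadjusted p under 0.05, where 15.2% of all genes did.

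Yap1 was at 30.8, 29.3 and 34.7 FPKM in controls and at 28.8, 37.3 and 29.8 FPKM in mutants 1 to 3, with a log2 fold change of 0.0089 (95% interval from -0.26 to 0.28). Wwtr1, encoding TAZ, was at 13.2, 15.8 and 17.5 FPKM in controls and at 18.7, 21.6 and 15.1 FPKM in mutants (log2 fold change 0.24, SE 0.15, limma adjusted p = 0.482). Like Ctgf, it was above the controls in mutants 1 and 2 and within their range in the library labelled mutant 3. Among the TEAD genes, Tead2 was the most abundant at 43.2 ± 3.33 FPKM in controls (SD, n = 3), followed by Tead1 at 31.6 ± 1.04 FPKM, Tead3 at 10.3 ± 1.74 FPKM and Tead4 at 3.16 ± 0.168 FPKM (SD, n = 3 each). Their log2 fold changes lay between -0.12 for Tead2 and -0.044 for Tead4. The TEAD cofactor gene Vgll4 was at 16.8 ± 1.00 FPKM in controls and 15.9 ± 1.08 FPKM in mutants (SD, n = 3 each).

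Among the kinases and adaptors, MST2 and MST1 are encoded by Stk3 and Stk4, and Sav1 encodes their scaffold. Stk3 had a log2 fold change of 0.11, Stk4 of 0.014 and Sav1 of 0.010. Nf2, which encodes the membrane adaptor merlin, was at 22.3 ± 0.776 FPKM in controls and 22.8 ± 1.91 FPKM in mutants (SD, n = 3 each), and the log2 fold change of Lats1 was -0.048. The smallest p of these genes were those of Mob1a, a LATS cofactor, with a log2 fold change of 0.19 (limma adjusted p = 0.402), Taok2 with -0.18 (adjusted p = 0.417) and Mob1b with -0.16 (adjusted p = 0.539).

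Amot, the angiomotin gene and a relative of Amotl1 and Amotl2, was the gene with the smallest p among all 35. It was at 14.1, 16.8 and 16.0 FPKM in controls and at 18.2, 21.1 and 20.0 FPKM in mutants 1 to 3. Every mutant library was above every control, as for 7.74% of all genes tested (log2 fold change 0.32, SE 0.097, limma adjusted p = 0.203). The angiomotin genes thus had different estimates, 0.32 for Amot, 0.048 for Amotl2 and -0.14 for Amotl1, and the differences between them were not tested. The junction and polarity genes with the next smallest p were Llgl1 at 0.097 (limma adjusted p = 0.685), Fat1 at -0.067 (adjusted p = 0.766) and Crb2 at 0.066 (adjusted p = 0.781).

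The genes whose profile over the 6 libraries was closest to Ctgf were named by the root mean square distance between log2(FPKM + 1) values centred on each gene's mean. Nppa, which encodes atrial natriuretic peptide, was closest at 0.096 log2 units, followed by Edn1, encoding endothelin 1, at 0.11 and Ppp1r16b, encoding a phosphatase subunit, at 0.12. The deviation of Ctgf itself from its mean was 0.46. Nppa was at 751, 620 and 793 FPKM in controls and at 1397, 1463 and 781 FPKM in mutants 1 to 3. Edn1 was at 3.90, 3.95 and 4.41 FPKM in controls and at 8.20, 8.16 and 3.89 FPKM in mutants 1 to 3. Ppp1r16b was at 1.41, 1.41 and 1.61 FPKM in controls and at 3.84, 4.19 and 1.77 FPKM in mutants 1 to 3. In all 3 genes mutants 1 and 2 lay above the controls. The library labelled mutant 3 was within the controls in Nppa, just below them in Edn1 and above them in Ppp1r16b. The profiles closest to Cyr61 were those of Gm42603 at 0.10, of Piezo2, which encodes a mechanically activated ion channel, at 0.11 and of 2700033N17Rik at 0.11. Piezo2 was at 1.70, 1.68 and 1.497 FPKM in controls and at 2.44, 2.33 and 0.850 FPKM in mutants 1 to 3. These genes were picked out of 13260 for being close, so their likeness is a description.

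**Figure D5:**
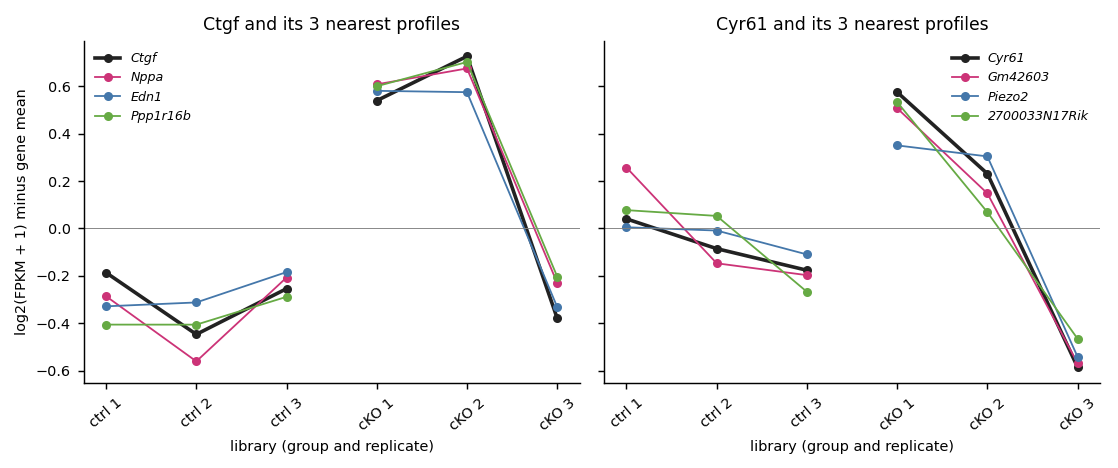
Log2(FPKM + 1) minus the gene's own mean in each library for Ctgf (left) and Cyr61 (right), in black, with the 3 genes closest in profile to each. Mutants 1 and 2 are above the controls for every gene on the left and mutant 3 falls back near the control level or, on the right, below it.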

How the data were processed

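Per the labels, the authors depleted ribosomal RNA and made strand-specific libraries, 3 of control and 3 of mutant hearts. The study's written methods for sequencing describe adult ventricles, with poly-A selection, and were not taken for these embryonic libraries. The authors deposited FPKM values, 1 for each of 60776 transcripts and library. The submitters' processing notes name mm9, Bowtie2 2.2.8, HISAT2, StringTie 1.3.1 and Cuffdiff 2.1.1. Which of them made the table, and on which annotation release, is not given for these libraries in the sources used here.

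Values were summed over the transcripts of a gene, with versioned and unversioned identifiers of a gene merged. Log2(FPKM + 1) was compared in R 4.3.3 with the lmFit and trended eBayes functions of limma 3.58.1, over the 13260 genes with at least 1 FPKM in at least 3 libraries, and p was adjusted over all of them by the Benjamini-Hochberg method. The fit was tested on simulated data. Absolute depth cannot be read from the values, so low values carry an unknown counting error.

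The genes, lists and tests were chosen with earlier results of these data known. Always named were the 10 targets, Mrps5, Ankrd1, the CCN genes and the main pathway genes, with up to 4 genes of smallest p per list, the 3 profiles nearest to Ctgf and to Cyr61, and transcripts holding at least 25% of a target's FPKM. Other genes named as exceptions were chosen after their values were seen. The alternatives were another pseudocount, no filter, 3 scalings, the most abundant transcript, the replicate number as a block, no trend and each library left out. Promoter sequences are from RefSeq, GRCm38.p6.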

Additional observations from a re-analysis of the deposited data

How the results depend on the processing

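The 11 genes called at an adjusted p under 0.05 by limma became 16 with 0.1 added to FPKM in place of 1. They became 13 with erythroid genes removed and FPKM rescaled, 10 with median scaling and 8 with quantile normalization. They became 6 without the filter on low values and 6 without a trend. The most abundant transcript gave 4, and the replicate number as a block gave 4. Leaving out a library gave between 5 and 270, with 121 without mutant 2 and 270 without the library labelled mutant 3. Of the targets, 3 had an unadjusted p under 0.05, as did 15.0% of all genes. The count was 1 without control 1, control 2 or mutant 1, where 9.17%, 12.7% and 11.4% of all genes passed, and 5 without the library labelled mutant 3, where 15.2% did, a range of 1 to 5. The count of targets whose groups did not overlap, 1 in all 6 libraries against 20.8% of all genes, was 2 without the filter (17.4% of all genes), 3 with erythroid genes removed and FPKM rescaled (20.8%), 2 for the most abundant transcript (19.4%) and 1 to 5 when a library was left out (27.0% to 35.7%), with 5 without the library labelled mutant 3 (32.5%). The median log2 fold change of the targets ranged from -0.049 without mutant 1 to 0.23 without the library labelled mutant 3. The causes were not tested.

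Log2 fold changes that changed sign when a library was left out ranged from -0.10 to 0.48 for Cyr61, -0.049 to 0.15 for Amotl2, -0.11 to 0.18 for Lats2, -0.10 to 0.078 for Yap1, -0.19 to 0.014 for Tead1, -0.14 to 0.066 for Tead3, -0.095 to 0.00017 for Tead4, -0.11 to 0.012 for Lats1, -0.063 to 0.10 for Stk4, -0.016 to 0.056 for Sav1, -0.036 to 0.067 for Nf2 and -0.20 to 0.041 for Wisp1. Quantile normalization also changed the sign for Yap1 (-0.0081) and Tead4 (0.031). Mrps5 ranged from -0.66 to -0.23.

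The replicate numbers are shared by both groups, but the deviations of same-numbered libraries from their group means correlated at 0.217, 0.110 and 0.0901, and nothing in the labels ties a number to a litter or batch. Every library correlated best with its own number. With this block Ctgf, Crim1 and Axl had an unadjusted p under 0.05, as they did without it, and 0 of the targets an adjusted one by limma. Leaving out the library labelled mutant 3 together with the filter, the erythroid genes or all but the most abundant transcript was added after seeing the data, and gave Ctgf an adjusted p of 0.0826, 0.00655 and 0.0413 by limma.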

Other observations

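Among the mesenchymal markers, some, chosen after their values were seen, lay above the controls in mutants 1 and 2 and not in the library labelled mutant 3. Pdgfra, which encodes a receptor for platelet-derived growth factor, was at 22.8, 22.7 and 23.1 FPKM in controls 1 to 3 and at 32.5, 37.0 and 18.4 FPKM in mutants 1 to 3. Its relative Pdgfrb was at 9.99, 9.94 and 9.57 FPKM in controls and at 11.8, 13.7 and 7.03 FPKM in mutants. Twist1, a transcription factor of mesenchymal cells, was at 12.5, 12.7 and 15.1 FPKM in controls and at 18.2, 21.4 and 12.7 FPKM in mutants. The list was not uniform. Postn was at 44.8, 44.6 and 49.0 FPKM in controls and at 40.4, 48.2 and 38.0 FPKM in mutants 1 to 3. Dcn was at 34.6, 37.5 and 40.4 FPKM in controls and at 43.4, 36.2 and 41.1 FPKM in mutants 1 to 3. With all 6 libraries 0 of the 10 mesenchymal markers had an unadjusted or adjusted p under 0.05 by limma. Without the library labelled mutant 3, 5 had an unadjusted p under 0.05 and 1, Pdgfra, an adjusted p under 0.05 (0.0237 by limma), where 15.2% and 2.04% of all genes did. Of the 10 cardiomyocyte markers, 7 did not overlap between the groups, with mutants lower, as for 1728 of all 13260 genes tested.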
